A study of Homo sapiens with 22 samples.

Results

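The WZ4002 response of PC9-GR3 cells was compared with that of PC9-GR2 cells, gene by gene, and for each gene the difference was traced to the vehicle level, the drug level or both. PC9 is an established human non-small cell lung cancer line whose growth depends on a mutant epidermal growth factor receptor (EGFR), and GR2 and GR3 are derivatives of it with acquired resistance to the EGFR inhibitor gefitinib. Each derivative is a single population, and neither stands for other resistant cells. The 4 groups were GR2 with vehicle, GR2 with WZ4002, GR3 with vehicle and GR3 with WZ4002, each of 2 libraries of polyadenylated RNA after 24 h, so 8 of the 22 libraries of the series were compared. The labels give WZ4002 at 1 mM, a unit that is in doubt because such inhibitors are usually given to cells at micromolar concentrations. Whether the libraries of a group stem from different cultures is not labelled, so the tests weigh differences against the spread between libraries, which may be technical.

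WZ4002 is a covalent inhibitor made against EGFR that carries the gatekeeper mutation, the change by which many tumours escape gefitinib, and it was tested here on both derivatives. Active EGFR drives the ERK cascade, which induces early transcription factors, growth factor ligands and its own feedback inhibitors such as DUSP6. It also drives the PI3K and AKT kinases, which keep FOXO transcription factors out of the nucleus, so that blocking the receptor usually lets FOXO targets rise, together with death genes of the BCL2 family such as BCL2L11 (BIM).

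Values are deposited CPM, that is gene reads per library total, taken as log2 of CPM plus 1, a scale that understates changes of genes near or under 1 CPM. A response is the mean with WZ4002 minus the mean with vehicle. The response difference is the GR3 response minus the GR2 response. It also equals the drug gap (GR3 minus GR2 with WZ4002) minus the vehicle gap (GR3 minus GR2 with vehicle). A difference was put to the vehicle level where the vehicle gap was at least 2 times the drug gap in size, to the drug level where the drug gap was at least 2 times the vehicle gap, and otherwise to both levels. Errors are standard errors (SE) of a limma model over all 22 libraries, and a gene passes at a Benjamini-Hochberg adjusted p under 0.05 over 15485 genes.

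The libraries held 28.2 to 49.6 M reads, as recovered from the CPM steps. The SD of log2 values between the 2 libraries of a group was 0.10 in GR2 with vehicle, 0.22 in GR2 with WZ4002, 0.33 in GR3 with vehicle and 0.25 in GR3 with WZ4002, so the GR3 vehicle libraries stood furthest apart. The GR2 vehicle libraries stand in the same run of columns of the deposited table, and those of each other group in different runs. Epithelial keratins and adhesion genes fixed as markers were all in the table, with summed CPM of 2777 to 6811. Of the leukocyte markers 1 of 6 was in the table (CD14, 0.10 to 7.22 CPM), and 3 of 4 endothelial and 5 of 8 fibroblast markers summed to at most 16.4 CPM in each set. In bulk RNA, fewer cells of a kind and less RNA per cell cannot be told apart.

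Across genes the 2 derivatives answered WZ4002 in the same directions, with smaller changes in GR3 cells. In GR2 cells 8618 of 15485 genes (55.7%) passed, against 3406 (22%) in GR3 cells, and changes of at least 2-fold numbered 3644 and 1175. With a term for the column order described below, 6925 genes passed in GR2 and 4543 in GR3. The SD of the response over all genes was 1.04 in GR2 and 0.60 in GR3. Across genes, which are not independent replicates, the responses correlated with a Pearson r of 0.76 and a Spearman rho of 0.74, and the slope of GR3 on GR2 was 0.43. The 2 responses share no library. By direction, 4238 genes (27.4%) rose and 4380 (28.3%) fell in GR2, and 1878 (12.1%) rose and 1528 (9.87%) fell in GR3.

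The response difference passed for 2103 genes (13.6%), of which 1050 (6.78%) were higher and 1053 (6.8%) lower in GR3, with a median of 0.02 over all genes. The larger response of the pair was that of GR2 in 1896 of the 2103 genes (90.2%). In 1329 genes (63.2%) the GR2 response alone passed, in 543 (25.8%) both passed in the same direction with the smaller one in GR3, and in 10 with the larger one in GR3. In 139 genes (6.6%) the GR3 response alone passed, in 58 (2.8%) both passed in opposite directions, and in 24 neither passed on its own. "Higher" in GR3 therefore mostly means a weaker fall, and "lower" mostly a weaker rise.

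**Figure D1:**
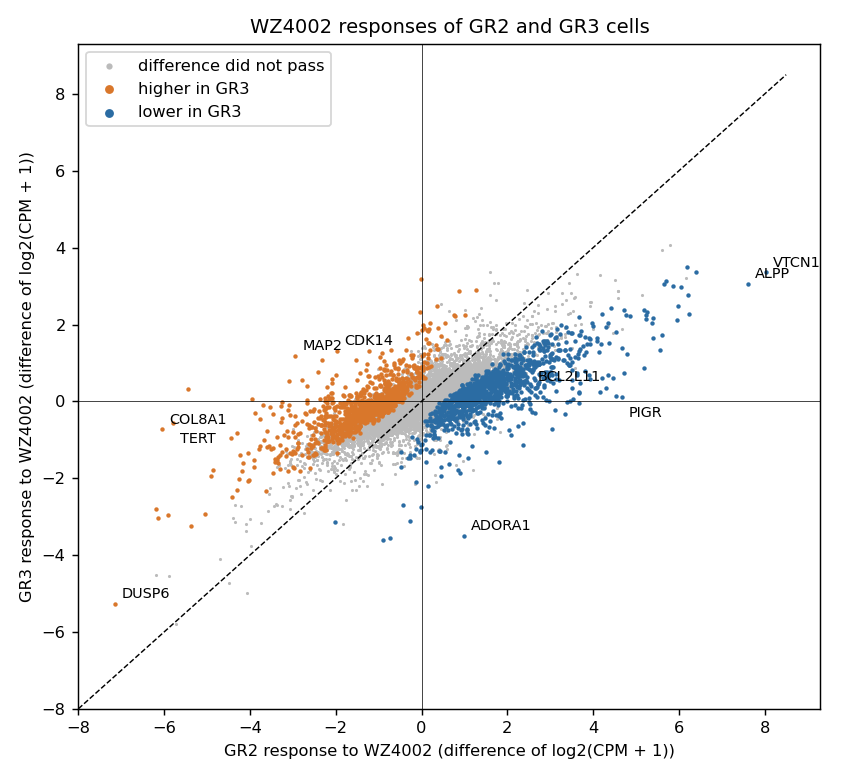
Responses to WZ4002 (log2 scale) of 15485 genes, with GR2 on the x axis and GR3 on the y axis; grey points did not pass the test of the difference, orange points were higher and blue points lower in GR3. The cloud lies flatter than the dashed line of equal responses, with a slope of 0.43, and 90.2% of the coloured genes changed more in GR2.

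In the main fit vehicle and drug levels contributed about equally, but which of them held more genes depended on the setting. Of the 2103 genes, 734 (34.9%) differed through the vehicle level, 776 (36.9%) through the drug level, 544 (25.9%) through both with gaps of opposite sign and 49 (2.3%) through both with gaps of the same sign. Over all 15485 genes these shares were 26.6%, 28.0%, 13.2% and 32.1%. The vehicle level held more genes than the drug level with a pseudocount of 0.1 (801 and 712) and with limma-voom on recovered reads (748 and 629). It also did with a term for the column order (842 and 618). In the other alternatives that kept all 8 libraries the drug level held more. The split differed by direction: of the genes higher in GR3, 433 (41.2%) were put to the vehicle and 320 (30.5%) to the drug level, whereas of those lower in GR3, 301 (28.6%) were put to the vehicle and 456 (43.3%) to the drug level. On its own test the vehicle gap passed for 5132 genes (33.1%) and the drug gap for 5179 (33.4%). With a term for the column order these counts were 3915 and 6105. The vehicle gap was higher in GR3 for 2415 genes (15.6%) and lower for 2717 (17.5%), and the drug gap higher for 2509 (16.2%) and lower for 2670 (17.2%).

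These classes trace 4 paths. The 433 vehicle-level genes that were higher in GR3 had a median of 52.8 CPM in GR2 and 22.8 CPM in GR3 with vehicle, and of 20.05 and 19.95 CPM with the drug. Such medians describe how the classes were defined and are no test. The 456 drug-level genes that were lower in GR3 started alike, at 6.3 and 7.0 CPM, and ended at 27.2 CPM in GR2 and 8.57 CPM in GR3. The 320 drug-level genes that were higher in GR3 started at 35.2 and 36.1 CPM and fell to 14.2 CPM in GR2, against 31.3 CPM in GR3. The 301 vehicle-level genes that were lower in GR3 started at 3.44 CPM in GR2 and 13.9 CPM in GR3 and ended at 18.4 and 18.2 CPM. Of the 433 genes, 52 (12.0%) were under 1 CPM in GR3 with vehicle, against 10.3% of all genes, and a further fall there is understated on this scale. Of the 456 genes, 26.8% were under 1 CPM in GR2 and 26.1% in GR3 with vehicle, against 13.4% and 10.3% of all genes. With WZ4002, 20.6% of the 456 were so in GR3, against 8.7% of all genes. Vehicle gaps of such low genes are understated too, which favours the drug level.

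**Figure D2:**
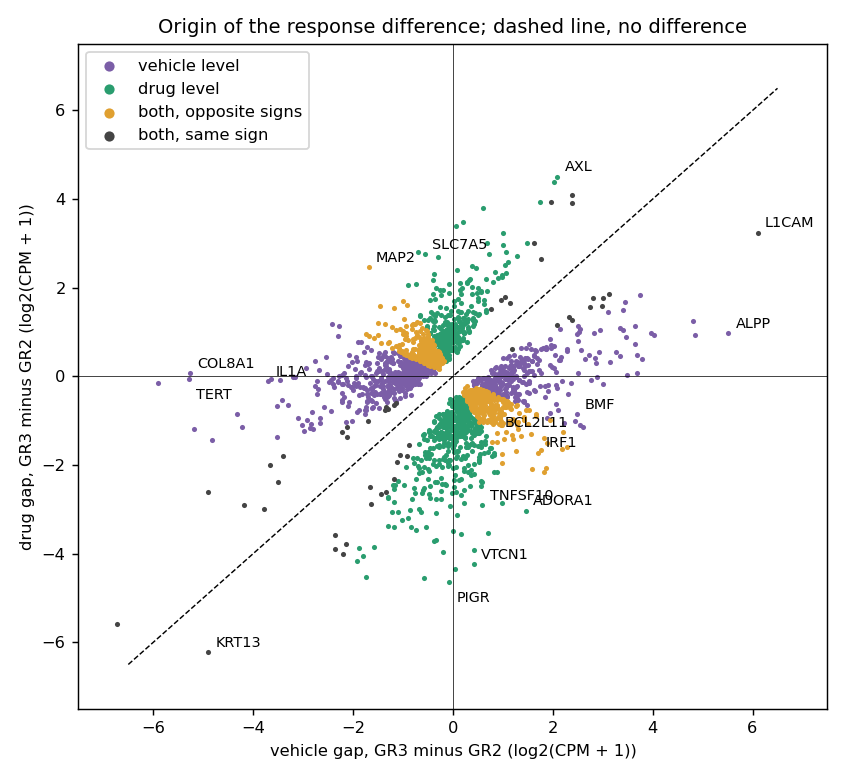
Vehicle gap (x axis) and drug gap (y axis), both GR3 minus GR2 on the log2 scale, of the 2103 genes whose response difference passed, coloured by origin. Vehicle-level genes spread along the horizontal axis, drug-level genes along the vertical axis, and genes with gaps of opposite sign fill the 2 other sectors; labelled genes are described in the text.

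Genes that rose further in GR2 than in GR3 cells led the drug-level group. VTCN1, which encodes the immune checkpoint ligand B7-H4, was at 0.34 and 0.80 CPM in vehicle-treated GR2 cells and at 353 and 461 CPM with WZ4002, and in GR3 cells it went from 1.40 and 0.81 to 27.1 and 15.4 CPM. PIGR, the epithelial receptor that carries polymeric immunoglobulins, rose from 0.12 and 0.06 to 23.1 and 30.9 CPM in GR2 and stayed at or under 0.15 CPM in all 4 GR3 libraries. PLAAT4, a phospholipid-metabolizing enzyme, went from 0.28 and 0.32 to 51.3 and 70.8 CPM in GR2 and from 1.00 and 1.22 to 4.57 and 4.02 CPM in GR3. In all 3 genes the derivatives were within about 1 CPM of each other with vehicle, and their drug-treated libraries did not overlap. The response differences were -4.66 ± 0.75 for VTCN1, -4.56 ± 0.45 for PIGR and -4.23 ± 0.60 for PLAAT4 (SE; limma adjusted p = 0.00083, 2.42e-05 and 0.000351). SEMA5B, a semaphorin, and PLA2G2F, a secreted phospholipase, had the same shape, with differences of -4.40 ± 0.59 and -4.32 ± 0.67 (limma adjusted p = 0.00024 and 0.00066). The SEMA5B call was lost on recovered reads with limma-voom (-6.84, adjusted p = 0.0614), a scale that stretches low values.

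Genes that GR3 cells already held low led the vehicle-level group. TERT, the catalytic subunit of telomerase, was at 58.9 and 58.1 CPM in vehicle-treated GR2 cells and at 0.07 and 0.08 CPM with WZ4002, but only at 0.49 and 0.56 CPM in vehicle-treated GR3 cells and 0.02 and 0.03 CPM with the drug. COL8A1, a short-chain collagen, fell from 182 and 179 to 2.13 and 1.40 CPM in GR2 and was at 5.95 and 2.24 CPM with vehicle and 3.25 and 0.95 CPM with the drug in GR3. IL1A, the cytokine interleukin-1 alpha, went from 14.1 and 12.5 to 0.11 and 0.11 CPM in GR2 and was at or under 0.15 CPM in every GR3 library. On this log2 scale GR3 cells with vehicle already sat near the level that GR2 cells reached under the drug in each of these genes. In plain CPM, TERT in GR3 with vehicle (0.49 and 0.56) stood above that level (0.07 and 0.08). It fell further in GR3 with the drug, to 0.02 and 0.03 CPM, a fall that this scale understates. The response differences were 5.22 ± 0.39 for TERT, 5.33 ± 0.49 for COL8A1 and 3.59 ± 0.35 for IL1A (limma adjusted p = 6.32e-06, 1.57e-05 and 2.38e-05), with vehicle gaps of -5.29, -5.26 and -3.70 and drug gaps of -0.07, 0.07 and -0.11. Their GR3 responses of -0.57, -0.72 and -0.10 were bounded by the low start: on this scale no fall beyond the vehicle level itself can be seen.

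CALB1, a calcium-binding protein, had the largest difference, 5.76 ± 1.42 (limma adjusted p = 0.0139), but its GR3 vehicle libraries held 0.56 and 12.7 CPM, against 278 and 275 CPM in GR2, and the call was lost without GR3 with WZ4002 replicate 2 or GR2 with vehicle replicate 1. LAMA3, the alpha 3 chain of laminin-332, differed by 3.23 ± 0.38 (limma adjusted p = 8.67e-05) and started lower in GR3 but not at the floor. It was at 249 and 244 CPM in GR2 and 41.5 and 57.5 CPM in GR3 with vehicle, and at 30.8 and 20.3 CPM and 52.7 and 44.2 CPM with the drug, so the GR3 libraries lay between the GR2 extremes and the drug-treated libraries of the derivatives did not overlap.

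In the third path, genes fell far in GR2 and less, or not past the test, in GR3. SLC7A5, the light chain of the large neutral amino acid transporter LAT1, went from 810 and 741 to 60.3 and 52.2 CPM in GR2 and from 365 and 754 to 434 and 340 CPM in GR3. CCND1, the G1 cyclin D1, went from 246 and 232 to 35.8 and 40.8 CPM in GR2 and from 332 and 349 to 140 and 175 CPM in GR3. AXL, a receptor tyrosine kinase often raised in EGFR-inhibitor resistance, went from 31.2 and 30.6 to 5.36 and 2.69 CPM in GR2, while GR3 libraries held 142 and 128 CPM with vehicle and 145 and 81.3 CPM with the drug. The vehicle gaps of SLC7A5 (-0.56) and CCND1 (0.51) did not pass, with the GR3 vehicle libraries of SLC7A5 far apart, whereas AXL was higher in GR3 in both treatments, with a vehicle gap of 2.09 and a drug gap of 4.50. Differences were 3.32 ± 0.52 for SLC7A5, 1.5 ± 0.38 for CCND1 and 2.41 ± 0.39 for AXL (limma adjusted p = 0.000647, 0.0163 and 0.000865). ODC1, the first enzyme of polyamine synthesis, followed the same path with 3.49 ± 0.70 (adjusted p = 0.00402). CCND1 lost its call without replicate 1 of GR2 with WZ4002, replicate 2 of GR3 with WZ4002 or replicate 1 of GR2 with vehicle.

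**Figure D3:**
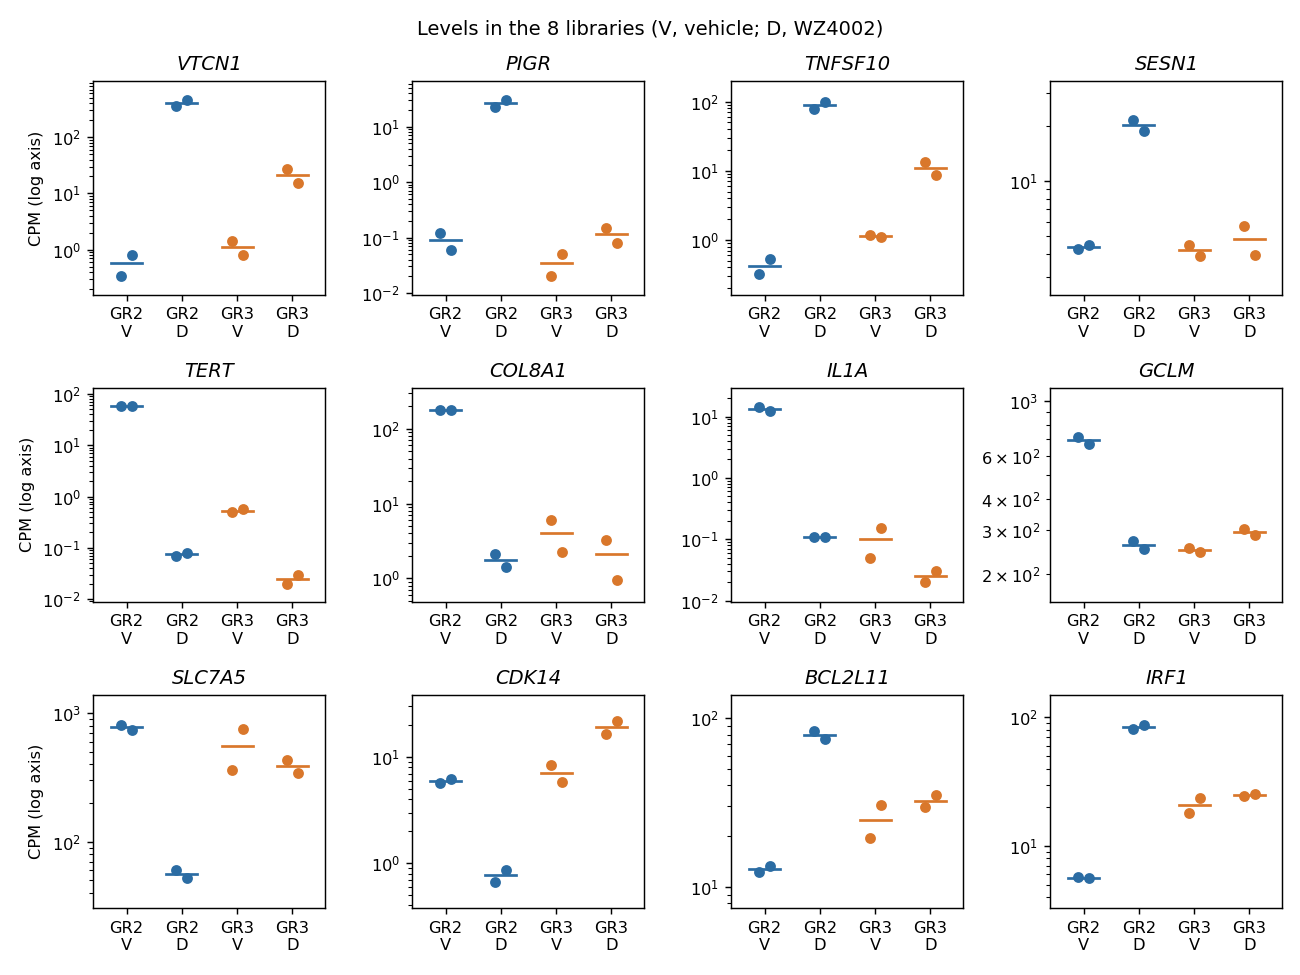
CPM of 12 genes in each of the 8 libraries on a log axis, with a bar at the mean of each group of 2; GR2 is drawn in blue, GR3 in orange, V is vehicle and D is WZ4002. VTCN1, PIGR and TNFSF10 separate most in the drug columns, TERT, COL8A1 and IL1A most in the vehicle columns, and BCL2L11 and IRF1 cross.

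The reverse vehicle-level pattern, a gene that started higher in GR3 and rose less there, was shown by CERS4, a ceramide synthase. It went from 1.84 and 2.41 to 126 and 135 CPM in GR2 and from 15.8 and 20.6 to 60.1 and 56.6 CPM in GR3, a difference of -3.76 ± 0.40 (limma adjusted p = 4.96e-05) with a vehicle gap of 2.61 and a drug gap of -1.15. H19, an imprinted noncoding RNA, was at 0.08 and 0.03 CPM in vehicle-treated GR2 cells and at 17.0 and 18.9 CPM with the drug, against 12.3 and 69.1 and then 25.0 and 49.9 CPM in GR3. Its GR3 vehicle libraries spanned both GR3 libraries with the drug, and its difference was -3.91 ± 0.85 (limma adjusted p = 0.00671), or -6.61 with a pseudocount of 0.1. ALPP, placental alkaline phosphatase, rose from 2.48 and 2.41 to 464 and 966 CPM in GR2 and from 96.7 and 254 to 1191 and 1458 CPM in GR3. Its difference was -4.54 ± 0.77 (limma adjusted p = 0.00127), and its reads may be shared with near-identical copies. EGR1, an early transcription factor of the ERK cascade, took another form, a fall in GR3 and a response in GR2 that did not pass. It went from 10.2 and 36.5 to 0.56 and 0.93 CPM in GR3, against 1.19 and 1.43 to 0.39 and 0.39 CPM in GR2. The GR2 response of -0.73 was bounded by this low start. The difference of -2.83 ± 0.61 (limma adjusted p = 0.00644) did not pass with limma-voom (-3.04, adjusted p = 0.174).

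Of the 544 genes put to both levels with gaps of opposite sign, both gaps passed in 207, one alone in 143 (vehicle) and 130 (drug), and neither in 64. Examples in which both passed crossed. MUC1, a membrane mucin, was higher in GR3 with vehicle (12.7 and 29.3 against 3.35 and 2.98 CPM) and lower in GR3 with WZ4002 (54.0 and 81.4 against 196 and 209 CPM). IRF1, an interferon-response transcription factor, was at 5.71 and 5.62 CPM in GR2 and 18.2 and 23.6 CPM in GR3 with vehicle, and at 81.8 and 87.4 CPM and 24.6 and 25.2 CPM with the drug. CAPN5, a calpain protease, rose from 2.50 and 2.73 to 85.8 and 102 CPM in GR2 and from 9.99 and 14.03 to 23.2 and 17.8 CPM in GR3. The groups did not overlap at either level in any of the 3 genes, and the order of the derivatives turned. Differences were -3.88 ± 0.47, -3.43 ± 0.32 and -3.98 ± 0.35 (limma adjusted p = 9.72e-05, 1.57e-05 and 1.09e-05). In the other direction the neuronal microtubule-associated genes MAP2 and MAP1B fell in GR2, with responses of -2.95 and -2.67, and had responses of 1.19 and 0.40 in GR3 that did not pass. Their differences were 4.14 ± 0.59 and 3.07 ± 0.36 (limma adjusted p = 0.00036 and 9.01e-05).

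In the 49 genes with gaps of the same sign, a lasting gap between the derivatives widened or narrowed. KRT13, a keratin of stratified epithelium, was far lower in GR3 throughout, at 4.43 and 6.58 against 186 and 195 CPM with vehicle and at 16.85 and 18.95 against 1385 and 1426 CPM with the drug. It rose in both, by 2.88 in GR2 and 1.56 in GR3, with a difference of -1.32 ± 0.37 (limma adjusted p = 0.0272) that did not pass with limma-voom (-1.16, adjusted p = 0.097). It also lost its call without any single library of the 8 except replicate 1 of GR3 with vehicle. L1CAM, a neural adhesion molecule, was at 112 and 174 CPM in vehicle-treated GR3 cells and 165 and 126 CPM with the drug, while GR2 rose from 1.09 and 1.00 to 13.59 and 15.03 CPM. Its difference of -2.86 ± 0.76 (limma adjusted p = 0.0211) was lost with limma-voom (-3.71, adjusted p = 0.0602) and without 5 of the 8 libraries in turn. SCEL, a protein of the cornified envelope, was lower in GR3 at both levels, with gaps of -4.90 and -2.60 and a difference of 2.30 ± 0.47 (limma adjusted p = 0.00434).

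In 30 genes higher and 28 lower in GR3, both responses passed and ran in opposite directions. ADORA1, the adenosine A1 receptor, went from 10.7 and 10.7 to 20.8 and 23.5 CPM in GR2 and from 36.7 and 26.3 to 2.43 and 1.34 CPM in GR3, responses of 0.99 and -3.50. ITGB6, the beta 6 integrin of epithelia, went from 54.2 and 58.5 to 98.5 and 105 CPM in GR2 and from 58.1 and 53.2 to 21.0 and 11.4 CPM in GR3. CDK14, a cyclin-dependent kinase, went from 5.69 and 6.28 to 0.67 and 0.87 CPM in GR2 and from 8.36 and 5.82 to 16.4 and 21.7 CPM in GR3. For ITGB6 and CDK14 the vehicle libraries of the derivatives overlapped and the drug-treated ones did not. The differences were -4.49 ± 0.45 for ADORA1, -2.62 ± 0.46 for ITGB6 and 3.30 ± 0.44 for CDK14 (limma adjusted p = 2.65e-05, 0.00158 and 0.000203). Besides ITGB6, 6 list members had such responses. E2F2, HEY1 and NRARP rose in GR2 and fell in GR3, whereas AKR1C3, F3 and COL17A1 fell in GR2 and rose in GR3. HEY1 and NRARP are targets of Notch signalling, and their differences were -2.35 ± 0.40 and -1.72 ± 0.39 (limma adjusted p = 0.00133 and 0.0091). Of 11 tested Notch pathway genes these 2 were lower and 1, the ligand JAG1, higher (2.89), with a median of -0.21. The share was 27.3%, against 13.6% of all genes. NRARP lost its call without replicate 2 of GR2 with WZ4002.

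Among receptors and ligands the EGFR transcript itself was at 1278 and 1130 CPM in GR2 and 764 and 1011 CPM in GR3 with vehicle, and at 976 and 1281 CPM and 536 and 373 CPM with the drug. Its response difference of -0.87 ± 0.35 did not pass (limma adjusted p = 0.108). Of 11 tested genes of the EGFR family and its ligands, 2 were higher (HBEGF and NRG1) and 2 lower (ERBB2 and ERBB3) in GR3, a share of 36.4% against 13.6% of all genes. HBEGF, an EGFR ligand, fell from 177 and 158 to 1.31 and 1.40 CPM in GR2 and from 13.5 and 41.1 to 1.02 and 3.43 CPM in GR3, a vehicle-level difference of 3.11 ± 0.72 (limma adjusted p = 0.0101, and 0.0832 with limma-voom). ERBB2, the partner receptor, rose from 56.9 and 63.2 to 206 and 201 CPM in GR2 and from 62.0 and 79.4 to 109 and 103 CPM in GR3, a drug-level difference of -1.16 ± 0.28 (limma adjusted p = 0.0131) that was lost without GR3 with vehicle replicate 2 or GR2 with vehicle replicate 1. Of 11 other receptor kinases and ligands, 5 were higher (AXL, EPHA2, MET, GAS6 and IGFBP3) and 2 lower (FGFR3 and INSR), a share of 63.6%. EPHA2, an ephrin receptor, and MET, the hepatocyte growth factor receptor, differed through the vehicle level by 2.38 ± 0.33 and 1.90 ± 0.30 (limma adjusted p = 0.000312 and 0.000783). MET was at 260 and 244 CPM in GR2 and 77.6 and 54.6 CPM in GR3 with vehicle and converged to 46.5 and 37.4 CPM and 46.3 and 35.6 CPM with the drug.

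ERK output genes passed in shares near the 13.6% of all genes, namely 1 of 8 DUSP phosphatases (DUSP6, 12.5%), 1 of 5 Sprouty and SPRED inhibitors (SPRY1) and 2 of 14 ERK-induced transcription factors (MYC and EGR1, 14.3%). DUSP6 was at 276 and 267 CPM in GR2 and 35.2 and 56.8 CPM in GR3 with vehicle, and at 0.60 and 1.29 CPM and 0.32 and 0.08 CPM with the drug. Responses of -7.15 in GR2 and -5.26 in GR3 gave a difference of 1.89 ± 0.59 (limma adjusted p = 0.0426), a call that ended with a pseudocount of 0.1 (0.75, adjusted p = 0.587) and with limma-voom (0.24, adjusted p = 0.924), and without any library but replicate 2 of GR3 with vehicle. SPRY1, a feedback inhibitor of receptor signalling, fell by 2.83 in GR2 and had a response of -0.81 in GR3 that did not pass, a difference of 2.02 ± 0.48 (limma adjusted p = 0.0116). MYC, the growth-promoting transcription factor, went from 203 and 204 to 52.4 and 58.1 CPM in GR2 and from 115 and 181 to 81.3 and 134 CPM in GR3. Its difference of 1.40 ± 0.40 (limma adjusted p = 0.0311) was lost without each library in turn except replicate 1 of GR3 with WZ4002 and replicate 2 of GR3 with vehicle.

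FOXO targets and brakes of PI3K signalling were lower in GR3 where they differed, against 6.78% higher and 6.8% lower over all genes. Of 17 tested members 0 were higher and 7 lower, with a median difference of -1.11 against 0.02 over all genes, and 5 of the 7 differed through the drug level and 2 through both. In GR2 13 members rose and 3 fell (median over members 1.93), and in GR3 9 rose and 1 fell (median 0.98). Over all genes 27.4% rose and 28.3% fell in GR2, and 12.1% rose and 9.87% fell in GR3. TNFSF10, the death ligand TRAIL, went from 0.32 and 0.52 to 77.3 and 99.3 CPM in GR2 and from 1.17 and 1.09 to 13.5 and 8.60 CPM in GR3, a difference of -3.50 ± 0.53 (limma adjusted p = 0.000574). DEPP1, a regulator of autophagy induced by FOXO factors, went from 3.07 and 2.58 to 267 and 295 CPM and from 9.17 and 15.5 to 85.1 and 90.3 CPM, a difference of -3.43 ± 0.51 (limma adjusted p = 0.000534). SESN1, a stress-induced sestrin, rose in GR2 from 4.26 and 4.50 to 21.5 and 18.8 CPM and was at 4.48 and 3.91 and then 5.65 and 3.94 CPM in GR3, so its GR3 groups overlapped. With each library left out in turn, 6 to 9 members were lower and 0 higher.

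Among the BCL2 family, BCL2L11 and BMF, BH3-only genes that trigger mitochondrial death, were the 2 of 11 tested pro-apoptotic members that differed, both lower in GR3. That share of 18.2% lay near the 13.6% of all genes, and the median difference of the list was -0.15. BCL2L11 went from 12.3 and 13.3 to 83.5 and 75.2 CPM in GR2 and from 19.6 and 30.4 to 29.9 and 34.9 CPM in GR3. Its GR3 response of 0.39 did not pass, its vehicle gap was 0.88 and its drug gap -1.27, both of which passed, and the difference was -2.15 ± 0.25 (limma adjusted p = 9.01e-05). BMF went from 1.03 and 0.98 to 94.9 and 71.0 CPM in GR2 and from 4.97 and 20.1 to 58.9 and 34.4 CPM in GR3, a vehicle-level difference of -3.34 ± 0.68 (limma adjusted p = 0.00438). The BMF drug gap of -0.85 did not pass, so the weaker rise in GR3 came with a higher vehicle level. BCL2L1, which encodes the survival protein BCL-XL, was at 241 and 239 CPM in GR2 and 97.7 and 128 CPM in GR3 with vehicle and at 53.4 and 67.5 CPM and 67.0 and 88.1 CPM with the drug, a vehicle-level difference of 1.45 ± 0.23 (limma adjusted p = 0.000783). MCL1, another survival gene, did not differ in response beyond its error (-0.20 ± 0.18, 95% interval -0.59 to 0.19, limma adjusted p = 0.496) and was lower in GR3 in both treatments, with gaps of -0.46 and -0.67.

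**Figure D4:**
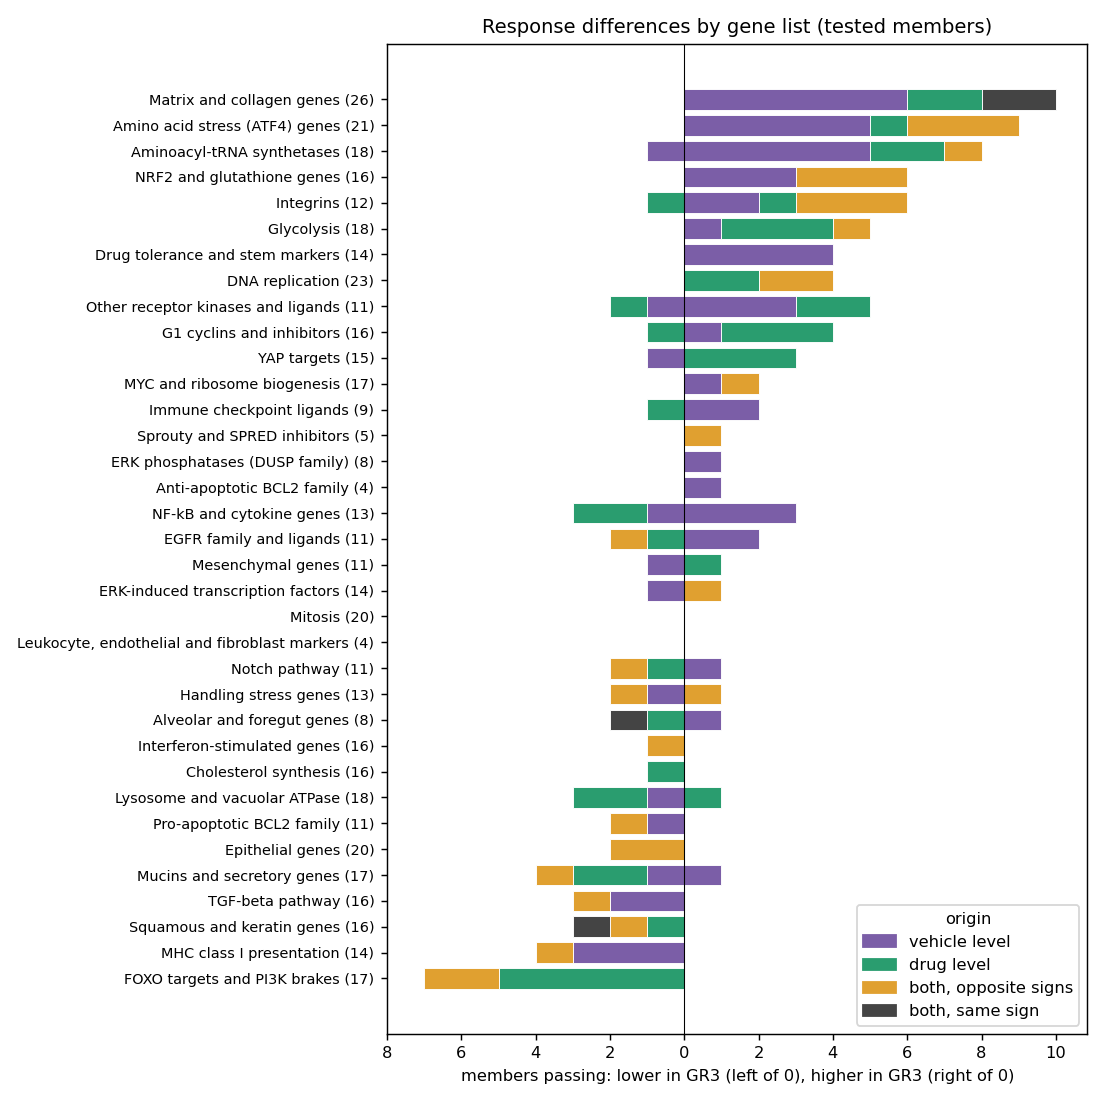
Members of each gene list whose response difference passed, as bars to the right (higher in GR3) or left (lower in GR3) of 0, coloured by origin, with the number of tested members beside each list name. FOXO targets extend only to the left (7 of 17), and the amino acid stress, matrix and NRF2 lists only to the right (9 of 21, 10 of 26 and 6 of 16).

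Amino acid stress genes, the targets of the transcription factor ATF4, fell less in GR3 where they differed, against 6.78% higher over all genes. Of 21 tested members 9 were higher and 0 lower, with a median difference of 1.12, and 5 of the 9 differed through the vehicle level, 1 through the drug level and 3 through both. In GR2 19 members fell (median -2.78) and in GR3 16 fell (median -1.51), against 28.3% and 9.87% of all genes. SLC1A4, a neutral amino acid transporter, went from 60.5 and 58.5 to 3.58 and 2.60 CPM in GR2 and from 11.4 and 19.2 to 4.50 and 4.58 CPM in GR3, a difference of 2.38 ± 0.30 (limma adjusted p = 0.000152). PSPH, the last enzyme of serine synthesis, went from 118 and 117 to 34.4 and 33.8 CPM and from 63.1 and 61.2 to 44.5 and 38.7 CPM, a difference of 1.18 ± 0.18 (limma adjusted p = 0.00066). Within both genes the vehicle groups stood apart and the drug-treated groups lay close. Of 18 aminoacyl-tRNA synthetases, which load amino acids onto tRNA, 8 were higher and 1, QARS1, lower. GARS1 fell from 766 and 710 to 71.3 and 76.2 CPM in GR2 and from 196 and 386 to 82.6 and 78.8 CPM in GR3, a vehicle-level difference of 1.55 ± 0.30, and LARS1 differed by 1.05 ± 0.15 through the drug level (limma adjusted p = 0.0032 and 0.000353).

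The 2 GR3 vehicle libraries differed in this list: the mean of log2(CPM + 1) over its 21 members was 5.83 in replicate 1 and 6.83 in replicate 2, against 7.46 and 7.37 in GR2 with vehicle and 4.65 to 4.83 in the drug-treated libraries. Without replicate 1 of GR3 with vehicle 9 members were higher and 1 lower, and without replicate 2 12 were higher. For the synthetases the counts were 6 and 13 higher.

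For replication genes the count moved with the libraries taken. Of 23 tested DNA replication genes, 4 were higher in GR3 (CDC6, CDC45, MCM10 and GINS4) and 0 lower, with a median difference of 1.34. The share that passed was 17.4%, against 13.6% of all genes. All 23 fell in GR2 and 10 in GR3, against 28.3% and 9.87% of all genes. No vehicle gap passed, and 14 drug gaps passed, all higher in GR3, against 16.2% higher over all genes. CDC6, which loads the replicative helicase, went from 72.7 and 70.4 to 4.61 and 2.57 CPM in GR2 and from 64.4 and 25.8 to 9.79 and 8.70 CPM in GR3, a difference of 1.98 ± 0.49 (limma adjusted p = 0.0148). CDC45, a part of that helicase, differed by 1.95 ± 0.58 (limma adjusted p = 0.0374). The list mean was 5.99 and 4.64 in the GR3 vehicle libraries, 1.35 apart, while the means of the GR3 groups with vehicle and with WZ4002 (4.50 and 3.88) lay 1.12 apart. Without replicate 1 of GR3 with vehicle 21 of 23 members were higher, and without replicate 2 none was, nor without GR2 with WZ4002 replicate 2 or GR2 with vehicle replicate 1, nor on the 8 libraries alone. The part that the spread between the GR3 vehicle libraries has in this count was not tested further.

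Mitosis genes shared this spread and 0 of 20 passed with limma, at a median difference of 0.81. CDK1, the mitotic kinase, had the lowest p of them, with 144 and 141 CPM and then 28.5 and 6.07 CPM in GR2 and 130 and 55.6 CPM and then 51.8 and 18.7 CPM in GR3, and a difference of 1.90 ± 0.92 (limma adjusted p = 0.185). The list mean was 6.87 and 5.72 in GR3 with vehicle, 5.97 and 4.18 in GR3 with WZ4002 and 5.18 and 3.46 in GR2 with WZ4002, and replicate 1 was the higher in each of these groups. Of 16 G1 cyclins and inhibitors 4 were higher (CCND1, CDK4, CDKN1C and CDKN2B) and 1, E2F2, lower, with 1 to 4 higher when a library was left out (1 without replicate 1 of GR2 with vehicle). This list passed in a share of 31.2% and the glycolysis genes in 27.8%, against 13.6% of all genes. CDK4, the partner of cyclin D1, fell from 67.4 and 69.0 to 21.1 and 22.5 CPM in GR2 and from 64.5 and 51.2 to 37.9 and 37.6 CPM in GR3, a drug-level difference of 1.01 ± 0.19 (limma adjusted p = 0.00297). Of 18 glycolysis genes 5 were higher (ENO1, ENO2, PFKM, PFKP and PGAM1) and 0 lower, but 12 were higher without replicate 1 of GR3 with vehicle and 0 without replicate 2.

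**Figure D5:**
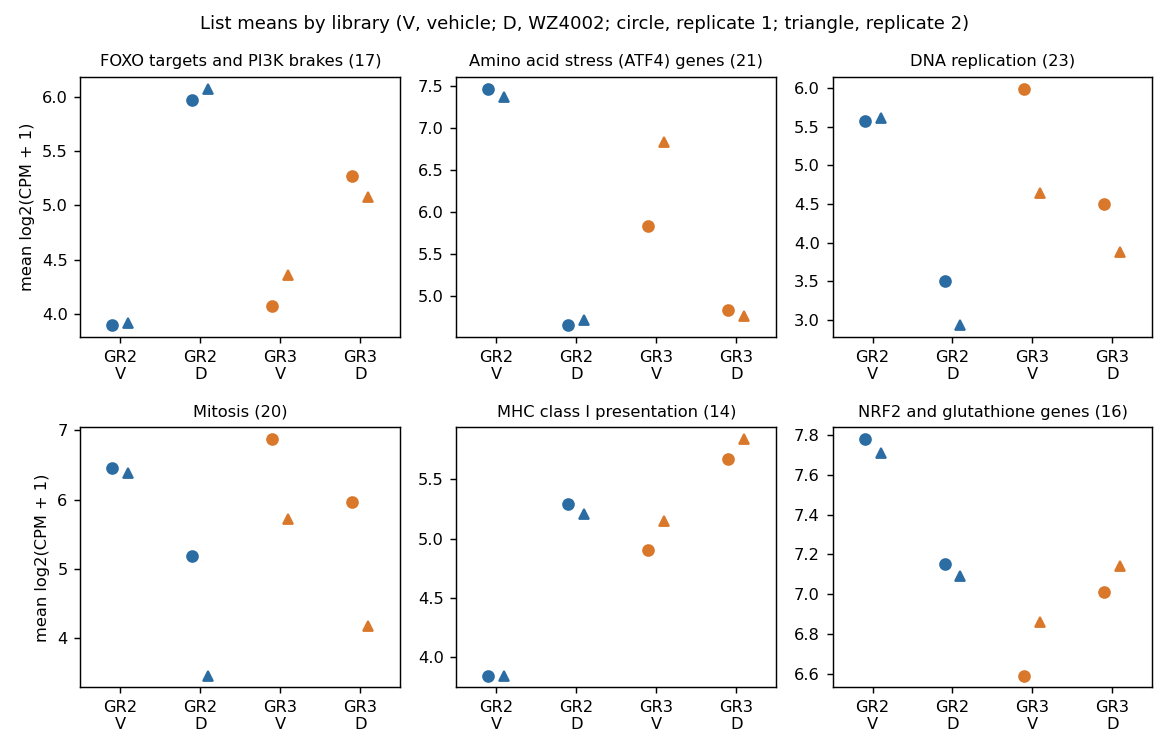
Mean of log2(CPM + 1) over the tested members of 6 gene lists in each of the 8 libraries, with circles for replicate 1 and triangles for replicate 2. The GR3 vehicle libraries lie 1.35 apart for DNA replication and 1.00 apart for amino acid stress genes, and the FOXO list separates the derivatives under WZ4002, with at most 0.18 between paired libraries there.

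Matrix, adhesion and redox genes that differed were mostly higher in GR3, against 6.78% higher and 6.8% lower over all genes. Of 26 tested matrix genes 10 were higher and 0 lower, 6 of them through the vehicle level, and of 12 integrins 6 were higher and 1, ITGB6, lower. ITGA2, a collagen-binding integrin, fell from 439 and 399 to 20.1 and 22.1 CPM in GR2 and from 112 and 161 to 26.6 and 39.1 CPM in GR3, a vehicle-level difference of 2.22 ± 0.34 (limma adjusted p = 0.000604). ITGB1, the beta 1 chain shared by many integrins, fell from 374 and 364 to 160 and 124 CPM in GR2 and was at 201 and 184 and then 192 and 199 CPM in GR3, a difference of 1.41 ± 0.24 (limma adjusted p = 0.0011). COL17A1, a hemidesmosome collagen, fell from 13.72 and 15.01 to 4.26 and 4.42 CPM in GR2 and rose from 3.80 and 2.85 to 8.23 and 7.98 CPM in GR3, a difference of 2.61 ± 0.39 (limma adjusted p = 0.000585). Of 16 NRF2 and glutathione genes 6 were higher and 0 lower. Their vehicle gaps ran one way, with 11 lower in GR3 and 0 higher (median -1.003), against 17.5% lower and 15.6% higher over all genes. These gaps also compare the column runs described below. The drug gaps of the list had a median of 0.09. GCLM, a subunit of the enzyme that starts glutathione synthesis, went from 715 and 671 to 271 and 252 CPM in GR2 and was at 254 and 244 and then 304 and 288 CPM in GR3, a vehicle-level difference of 1.65 ± 0.26 (limma adjusted p = 0.000779). AKR1C3, an aldo-keto reductase of the same list, fell by 0.71 in GR2 and rose by 0.80 in GR3.

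Antigen presentation genes began higher in GR3 and, where they differed, rose less. Of 14 tested MHC class I presentation genes 0 were higher and 4 lower (PSMB9, TAPBP, ERAP1 and PSMB8), a share of 28.6% against 13.6% of all genes. Their vehicle gaps passed in 12 of the 14, all higher in GR3, against 15.6% higher over all genes. The vehicle gap also compares the column runs described below. The median response of the 14 genes was 1.40 in GR2 and 0.76 in GR3. Of the 14, 13 rose in GR2 and 12 in GR3, against 27.4% and 12.1% of all genes. PSMB9, an immunoproteasome subunit, went from 0.50 and 0.86 to 12.4 and 12.3 CPM in GR2 and from 6.39 and 5.23 to 13.45 and 15.01 CPM in GR3, a vehicle-level difference of -1.83 ± 0.40 (limma adjusted p = 0.00747). TAPBP, which loads peptide onto class I molecules, differed by -1.24 ± 0.21 (limma adjusted p = 0.00109). Of 16 interferon-stimulated genes IRF1 alone differed, and CD274, the checkpoint ligand PD-L1, differed by 1.75 ± 0.48 through the vehicle level (limma adjusted p = 0.0241), a call lost without 5 of the 8 libraries in turn. Of 13 NF-kB and cytokine genes 3 were higher and 3 lower, a share of 46.2% against 13.6% of all genes. The 3 higher were IL1A, IL1B and LIF, cytokines that started lower in GR3, and the 3 lower BIRC3, CXCL1 and ICAM1. With each library left out in turn, 3 were higher and 0 or 1 lower. LIF went from 122 and 116 to 10.29 and 14.97 CPM in GR2 and from 21.6 and 29.6 to 7.67 and 9.99 CPM in GR3, a difference of 1.73 ± 0.30 (limma adjusted p = 0.00167).

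Mucin and secretory genes passed in a share of 29.4%, squamous and keratin genes in 18.8% and epithelial genes in fewer than the 13.6% of all genes. Of 17 tested mucin and secretory genes 1 was higher (TFF1) and 4 lower (PIGR, ALPP, MUC1 and SCGB1A1). Of 16 squamous and keratin genes 3 were lower (KRT4, KRT13 and KRT15), and of 20 epithelial genes 2 were (CLDN3 and ELF3), with 0 higher in either list. With a library left out in turn, 4 to 7, 1 to 5 and 2 to 5 members of these lists were lower, with 7, 4 and 4 without replicate 1 of GR3 with vehicle. CLDN3, a tight junction claudin, went from 1.19 and 1.38 to 23.0 and 32.2 CPM in GR2 and from 2.59 and 4.68 to 6.0 and 6.64 CPM in GR3, a difference of -2.93 ± 0.39 (limma adjusted p = 0.000237). ELF3, an epithelial transcription factor, rose in both, from 48.1 and 50.4 to 466 and 470 CPM and from 74.1 and 139 to 252 and 269 CPM, with a difference of -1.87 ± 0.42 (limma adjusted p = 0.00885). Among 8 tested alveolar and foregut genes 1 was higher and 2 lower (HOPX and ABCA3), a share of 37.5%. HOPX rose in GR2 from 1.09 and 0.92 to 6.53 and 7.55 CPM and was at or under 0.39 CPM in GR3. ABCA3, in contrast, was higher in GR3 in both treatments, with a vehicle gap of 3.02 and a drug gap of 1.77. Of 11 mesenchymal genes 1 was higher and 1, SNAI1, lower. CALD1, an actin-binding caldesmon, went from 94.7 and 112 to 301 and 608 CPM in GR3, while the GR2 libraries held 80.1 to 101 CPM, a drug-level difference of 1.85 ± 0.42 (limma adjusted p = 0.00942). JAG1, a Notch ligand, fell from 146 and 136 to 17.0 and 14.0 CPM in GR2 and was at 9.48 to 12.3 CPM in all GR3 libraries, a vehicle-level difference of 2.89 ± 0.52 (limma adjusted p = 0.00179).

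The other lists held 0 to 4 differences each, where 13.6% of all genes passed. With a library left out in turn, 0 to 2 cholesterol, 1 to 5 lysosome and 1 to 4 TGF-beta pathway genes were lower and 0 to 4 MYC and ribosome biogenesis genes higher. Of 16 cholesterol synthesis genes 0 were higher and 1 lower, while 13 rose in GR2 and 7 in GR3, against 27.4% and 12.1% of all genes. With a term for the column order 2 were higher and 0 lower, and the median difference turned from -0.34 to 0.56. Of 17 MYC and ribosome biogenesis genes 2 were higher (MYC and NOP56), of 18 lysosome genes 1 was higher (SQSTM1) and 3 lower, among them ATP6V0A4 and CTSB, and of 16 TGF-beta pathway genes 3 were lower (BAMBI, SMAD6 and TGFBR3). Of 15 YAP targets 3 were higher, AXL, AJUBA and F3, and 1, WWC1, lower. AJUBA, a scaffold of cell junctions, and F3, tissue factor, differed through the drug level by 1.69 ± 0.33 and 1.63 ± 0.36 (limma adjusted p = 0.00316 and 0.00763). Of 14 drug tolerance and stem markers 4 were higher, all through the vehicle level (ALDH3A1, IGFBP3, ALDH1A3 and HMGA2), but 1 was without either GR2 vehicle library or replicate 2 of GR2 with WZ4002, GR3 with vehicle or GR3 with WZ4002. ALDH3A1, an aldehyde dehydrogenase, differed by 3.41 ± 0.61 (limma adjusted p = 0.00179). The 4 tested markers of leukocytes, endothelium and fibroblasts held 0 calls with limma, and the lowest adjusted p was 0.0604 for CD14, with CPM of at most 7.22. Of 13 handling stress genes 1 was higher (HSPA8) and 2 lower (HSPB1 and EGR1).

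The columns of the deposited table fall into 3 runs of libraries, and both GR2 vehicle libraries stand in the third. Of the other 6 libraries of the comparison, each replicate 1 stands in the first run and each replicate 2 in the second. The GR2 response and the vehicle gap therefore also compare runs. With a term for these runs 2073 genes passed, of which 1458 were among the 2103 (69.3%). The GR2 response then passed for 6925 genes and the GR3 response for 4543, against 8618 and 3406. The vehicle gap passed for 3915 and the drug gap for 6105. Differences put to the vehicle level numbered 842 and those put to the drug level 618, against 734 and 776. Of the 112 passing genes chosen by the naming rule, 97 kept their call, and those that ended included ALDH1A3 (0.73, limma adjusted p = 0.163), IGFBP3 (1.15, 0.155), CCND1 (0.56, limma adjusted p = 0.146), MYC (1.09, 0.17), SPRY1 (1.29, 0.0974), DUSP6 (1.36, 0.206), F3 (1.10, 0.081), CD274 (1.31, 0.154), HBEGF (2.65, 0.0695) and NRARP (-1.56, 0.0532). On the 8 libraries alone 101 of the 112 kept their call, and those that ended included CDC6, CDC45, GINS4, MYC and CD274 (limma adjusted p = 0.0599, 0.111, 0.0873, 0.0568 and 0.0812). Whether the runs are batches is not given in the sources used here, and their part was not tested beyond this fit.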

How the data were processed

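RNA of PC9 cells and derivatives was sequenced from polyadenylated libraries made with a directional kit, per the labels' protocols. The submitters' processing notes name STAR, HTSeq and the build hg19, without versions or a strand setting. The authors deposited CPM (reads of a gene scaled to the library total) with 2 decimals. The table lists 17165 genes, and 15962 of these have a symbol. The table held 0 values equal to 0, so genes with no read in 1 or more of the 22 libraries were not analysed here. Positions on the genome were not used here. The CPM fell on whole multiples of 1 read within 0.0051 CPM, which gave the depths in the report. By chance 28.2 to 49.6% of the values would do so in the 8 libraries. A stricter check of low values did not accept the recovered reads as whole, so the depths are estimates. In the 8 libraries 54.6 to 64.2% of the CPM lay in listed genes, or 17.2 to 31.8 M reads each.

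A gene entered the fit if 2 or more of the 22 libraries had at least 1 CPM (15485 genes, with 1680 left out). A pseudocount of 1 was added before log2. A model with 11 group means over all 22 libraries was fitted with limma 3.58.1 in R 4.3.3, with a variance trend and 11 residual degrees of freedom, with Benjamini-Hochberg adjustment over all genes of a contrast. Intervals cover 95%. The median SE of a response difference was 0.26. On simulated data with 200 changed genes of 15485 in 5 runs, the fit of the response difference recovered 39% of 2-fold and 89% of 4-fold changes, and 4.71% of calls were wrong. The simulation took genes and libraries as independent, with 1 spread per gene for all groups. In the data the SD between paired libraries ran from 0.1 (GR2 with vehicle) to 0.325 (GR3 with vehicle), and same-numbered libraries shared deviations. These rates may therefore not hold for this comparison.

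Groups, members and the 35 gene lists were chosen with earlier results of these data known, so list counts are no independent support. Named were the 8 largest differences in each direction and the 4 largest of each origin and direction among passing genes with at least 5 CPM in a group, the passing members with the lowest p of each list (at most 3, or 1 member where none passed), list members with opposite responses, and EGFR, DUSP6, BCL2L11 and MCL1. Not all are printed, and some are not reported here. Names that complete a count of 5 or fewer were added after their values were seen. Each result was recomputed without the filter, with a pseudocount of 0.1, with median-of-ratios scaling, with a replicate block, on the 8 libraries alone, with weights by group, with limma-voom on recovered reads, with a term for the column runs, and without each library in turn.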

Additional observations from a re-analysis of the deposited data

Results flagged for a closer look

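The genes counted here are 93 of those named in the report, leaving aside names that only complete a count. The difference between the WZ4002 responses of GR3 and GR2 passed with limma for 89 of them, 40 lower and 49 higher in GR3. Most were chosen because their difference passed, so this share is no result. Over all genes 13.6% passed. The values are response differences on the log2 scale with 4 libraries for each derivative. Groups of 2 libraries allow no test for an outlying library.

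Among genes put to the drug level, those lower in GR3 differed by -4.66 for VTCN1, -4.56 for PIGR, -4.49 for ADORA1, -4.40 for SEMA5B, -4.32 for PLA2G2F, -4.23 for PLAAT4, -3.50 for TNFSF10, -2.87 for KRT4, -2.82 for E2F2, -2.62 for ITGB6, -2.35 for HEY1 and -2.14 for ATP6V0A4. Smaller values of this kind were -1.87 for HOPX, -1.83 for SESN1 and -1.16 for ERBB2. Those higher in GR3 differed by 3.49 for ODC1, 3.32 for SLC7A5, 3.30 for CDK14, 2.41 for AXL, 1.85 for CALD1, 1.69 for AJUBA, 1.65 for ENO2, 1.63 for F3, 1.5 for CCND1, 1.28 for GINS4, 1.19 for ENO1 and 1.05 for LARS1. Smaller values of this kind were 1.01 for CDK4.

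Among genes put to the vehicle level, those lower in GR3 differed by -4.54 for ALPP, -3.91 for H19, -3.76 for CERS4, -3.34 for BMF, -2.83 for EGR1, -1.83 for PSMB9, -1.56 for TGFBR3, -1.41 for SNAI1, -1.40 for SMAD6, -1.07 for CTSB and -0.91 for ERAP1. Those higher in GR3 differed by 5.76 for CALB1, 5.33 for COL8A1, 5.22 for TERT, 3.59 for IL1A, 3.41 for ALDH3A1, 3.23 for LAMA3, 3.11 for HBEGF, 2.89 for JAG1, 2.61 for COL17A1, 2.38 for SLC1A4 and 2.38 for EPHA2. Smaller values of this kind were 2.22 for ITGA2, 2.02 for IL1B, 1.90 for MET, 1.89 for DUSP6, 1.75 for CD274, 1.73 for LIF, 1.65 for GCLM, 1.61 for IGFBP3, 1.55 for GARS1, 1.52 for AKR1C3, 1.45 for BCL2L1 and 1.41 for ALDH1A3. Smaller values of this kind were 1.26 for NOP56, 1.18 for PSPH and 0.98 for NRG1.

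Among genes put to both levels with opposite signs, those lower in GR3 differed by -3.98 for CAPN5, -3.88 for MUC1, -3.43 for DEPP1, -3.43 for IRF1, -2.93 for CLDN3, -2.51 for HSPB1, -2.32 for KRT15, -2.18 for BAMBI, -2.15 for BCL2L11, -1.87 for ELF3, -1.72 for NRARP and -1.24 for TAPBP. Those higher in GR3 differed by 4.14 for MAP2, 3.07 for MAP1B, 2.02 for SPRY1, 1.98 for CDC6, 1.95 for CDC45, 1.64 for HSPA8, 1.41 for ITGB1, 1.40 for MYC and 1.01 for PFKM.

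Among genes put to both levels with the same sign, those lower in GR3 differed by -2.86 for L1CAM and -1.32 for KRT13. Those higher in GR3 differed by 2.30 for SCEL.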

How the results depend on the processing

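Under the 8 alternatives other than leaving out a library, 1698 to 2461 response differences passed, against 2103. The replicate block gave 2461 with 2099 of the 2103 among them, and the replicate numbers do not pair the samples by any label. In the groups of the comparison other than GR2 vehicle, replicate 1 stands in the first column run and replicate 2 in the second. Deviations of same-numbered libraries correlated at 0.35 to 0.47 among the other 3 groups and at -0.07 to 0.04 with GR2 vehicle. The block ended no call of the 112 genes chosen by the naming rule and added that of CD14, and of the NF-kB and cytokine genes named 2 rather than 3 were lower with it. The fit on the 8 libraries alone kept 1461 calls, limma-voom 1821 and the column-run term 1458. Origins stayed the same for 87.8% of the 2103 genes with the column-run term and 93.2% with limma-voom. They did so for 95.1% with a pseudocount of 0.1 and 98.7% with median-of-ratios scaling, and for 89 to 96.8% with a library left out. The other alternatives leave the group means of these genes unchanged, so they could not change an origin. Weights by group lowered the calls of the GR3 response from 3406 to 1716, and limma-voom those put to both levels with the same sign from 49 to 30. The cause was not tested. The MCL1 difference reversed to 0.10 with the column-run term, where it did not pass (adjusted p = 0.76).

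With each of the 8 libraries left out in turn, the response difference passed for 1005 (without GR2 vehicle replicate 1) to 2888 genes (without GR3 vehicle replicate 1). It passed for 1148 without GR2 with WZ4002 replicate 2 and for 1151 without GR2 vehicle replicate 2. The range was 6596 to 8878 for the GR2 response, 1729 to 3688 for the GR3 response, 2995 to 5103 for the vehicle gap and 3258 to 5562 for the drug gap. Differences put to the vehicle level ranged from 360 to 1105, to the drug level from 367 to 853, to both with opposite signs from 266 to 868 and to both with the same sign from 12 to 62. A lone library was taken to vary like those of the other groups. Of the 112 named genes that passed, 85 to 107 did so in these fits. No called gene changed sign when a library was left out, while 1 did with a pseudocount of 0.1 and 6 with limma-voom. The planned negative binomial tests on recovered reads were not run, because a stricter check of low values did not accept the recovered reads as whole. With 2 libraries in a group, a 2-fold difference is often missed.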
